A study of Homo sapiens with 6 samples.

Results

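The genes described are the keratins, the claudins and the proteins of tight junctions, desmosomes and adherens junctions in TOV21G, a human cell line from an ovarian clear cell carcinoma. They were chosen by symbol: all rows of the deposited table named KRT, CLDN or TJP with a number, the desmocollins, desmogleins and desmoplakin, and 14 further genes, namely CDH1, EPCAM, OCLN, F11R, CGN, JUP, the 4 plakophilins and the regulators ESRP1, ESRP2, GRHL2 and OVOL1. In all, 68 of the 16910 genes tabulated fit these names, and the 39 with a mean of at least 0.5 TPM (transcripts per sequencing total and per length, a level that can be compared between genes) over the 6 libraries are reported. TOV21G RNA was sequenced in 3 groups of 2 libraries. NC, with the genotype label WT, is read as the control siRNA. siGYS1 is labelled as a GYS1 knock down, GYS1 being the muscle-type glycogen synthase, and sip53 as a p53 knock down. The labels give 1 cell line for all 3 groups, no time after transfection, no siRNA sequence and no statement on separate cultures, so p-values measure only the spread between these libraries, which may be technical.

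Keratins are the intermediate filament proteins of epithelial cells, and a filament forms from pairs of a type I and a type II chain. KRT8 and KRT18 are the usual pair of simple, single-layered epithelia such as those of the ovary surface and the Müllerian tract, whereas other keratins belong to stratified epithelium or hair. Claudins and occludin are the membrane proteins that seal tight junctions, and the TJP proteins and cingulin join them to actin. Desmosomes link keratin filaments of neighbouring cells through desmogleins and desmocollins outside and plakoglobin, plakophilins and desmoplakin inside, while E-cadherin (CDH1) builds adherens junctions.

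The GYS1 label was checked first. GYS1 was at 37.6 and 33.4 TPM with NC, 2.33 and 2.15 with siGYS1 and 39.3 and 40.7 with sip53. It was thus low in its own knockdown alone. The libraries held 17425000 to 18097337 read counts each. Replicates were not equally close: the chi-square per degree of freedom between the 2 libraries of a group was 8.62 for NC, 15.8 for siGYS1 and 3.41 for sip53. Over 11187 genes, the deviation of a library from the mean of all libraries followed transcript length most in siGYS1 replicate 1 (Spearman's rho 0.54) and NC replicate 2 (rho -0.39), and lay between -0.09 and 0.04 in the other 4. With offsets corrected for length, 17 of the 39 genes passed with siGYS1 against NC (6 up, 11 down), beside 12 without this correction, and the share of all genes called rose likewise, from 19.7% to 31.1%. Of the markers of other cell types, some were near 0 in all libraries (COL3A1 at most 0.02 TPM, LUM at most 0.12, KRT5 at most 0.12, TP63 at most 0.02) and others were not. COL1A1 was at 9.88 to 19.5 TPM, the leukocyte genes LAPTM5 and CD68 were at 19.8 to 26.1 and 4.72 to 8.37, and the mesothelial gene MSLN was at 10.8 to 17.1. The 5 leukocyte markers tabulated summed to 26.3 and 26.0 TPM with NC, 31.1 and 32.4 with siGYS1 and 30.0 and 32.0 with sip53, and the 5 mesothelial markers to 18.7 and 19.4, 13.2 and 13.9, and 14.7 and 17.4. DCN, a fibroblast matrix gene, was at 0.41 and 8.55 TPM in the 2 NC libraries, 0.34 and 0.42 with siGYS1 and 5.78 and 4.05 with sip53. The 8 fibroblast markers summed to 19.6 and 28.0 TPM with NC, 20.8 and 16.03 with siGYS1 and 17.7 and 14.8 with sip53. The part of any of these in the results was not tested. PAX8, a transcription factor of the Müllerian lineage, was at 177 to 220.0 TPM.

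Of the 68 genes, 13 of 26 keratins, 10 of 19 claudins, all 6 other tight junction genes, 7 of 11 desmosome genes, CDH1 and EPCAM, and 1 of 4 regulators reached 0.5 TPM. All 39 also passed the filter on low counts. The other 29 included 19 with fewer than 10 reads over the 6 libraries. Just inside the limit lay CGN at 0.597 TPM and CLDN14 at 0.943 on average, and just outside it KRT222 at 0.297 and CLDN11 at 0.287. With NC alone CGN, CLDN14 and DSC2 averaged 0.36, 0.25 and 0.425 TPM, so they reached the limit through the knockdown libraries. GRHL2 and ESRP1, a transcription factor and a splicing regulator that keep epithelial programmes, had 4 and 3 reads over all libraries. ESRP2, the paralogue of ESRP1, was present at 4.18 to 5.79 TPM. Because ESRP1 and GRHL2 were near 0 in the NC libraries too, no change in them could be measured.

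The levels spanned a wide range. CLDN1 was the highest, at 272nd of all 16910 genes by mean TPM, followed by KRT8 and KRT18 at the 538th and 542nd places. In all, 4 genes exceeded 100 TPM, 14 lay between 10 and 100 TPM, 19 between 1 and 10, and 2 below 1. Among the genes often used to mark epithelium, KRT18 was high, whereas CLDN4, EPCAM and CDH1 were at means of 7.96, 4.17 and 1.87 TPM. Vimentin (VIM), the mesenchymal intermediate filament, was at 2265 to 2848 TPM in the same libraries. Read support differed accordingly, from 23006 reads of CLDN1 in a library to 3 reads of CLDN14 in another.

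**Figure D1:**
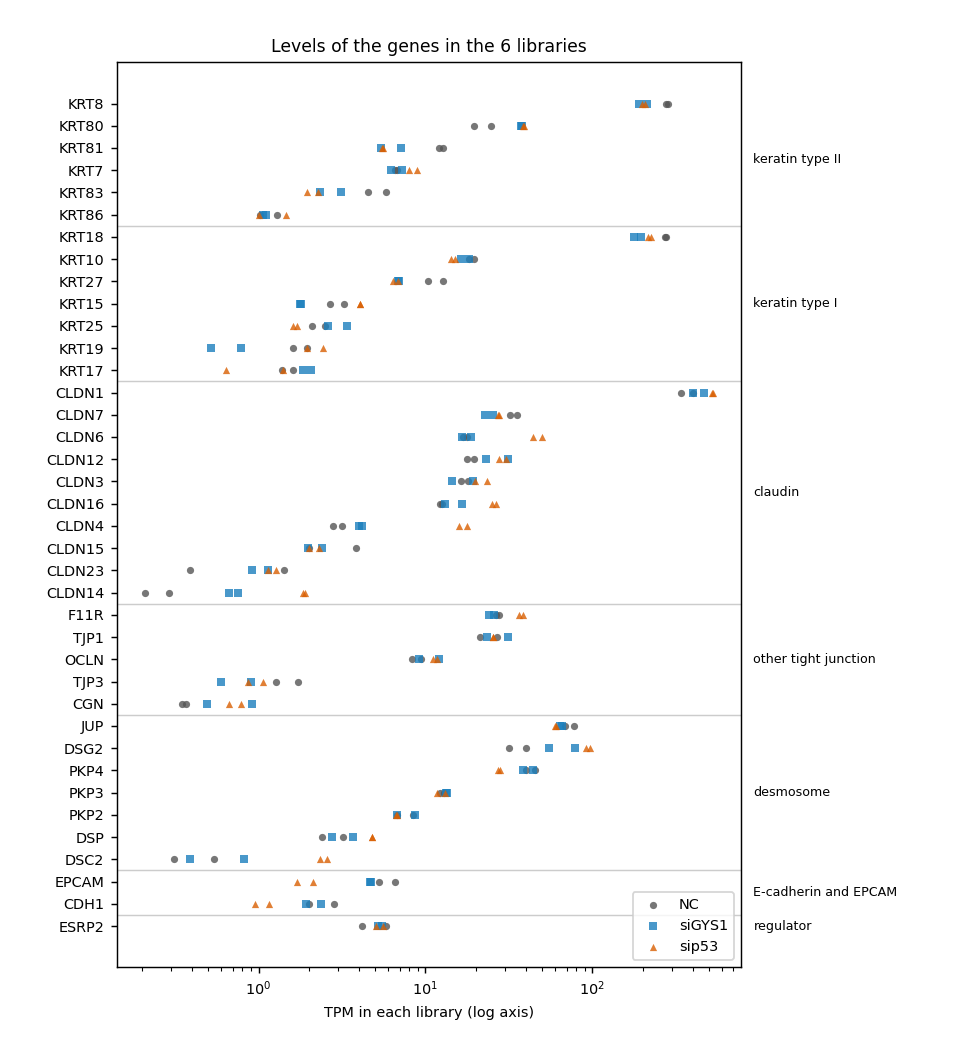
TPM of the genes described in each of the 6 libraries on a log axis, ordered by role and then by mean level, with NC as circles, siGYS1 as squares and sip53 as triangles. CLDN1, KRT8 and KRT18 lie above 100 TPM, and for CLDN4, CLDN6, DSG2 and DSC2 both sip53 libraries lie to the right of both NC libraries.

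With siGYS1, 7 of 13 keratins fell and 1 rose against NC. Across all 39 genes, 12 passed (3 up, 9 down), which is 30.8% beside 19.7% of all 13235 genes tested; 10.4% of all genes rose and 9.24% fell. The median log2 fold change over the 13 keratins was -0.49, and over all genes tested it was -0.01. Outside the keratins 2 of 26 genes rose and 2 fell, with a median of 0.10. The count depended on NC replicate 2, as without that library 4 genes passed (2 up, 2 down) beside 7.004% of all genes.

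The keratin pair of simple epithelium fell together with siGYS1. KRT8, the type II chain, was at 284 and 278 TPM with NC and 189 and 213 with siGYS1. KRT18, its type I partner, was at 271 and 276 TPM with NC and 177 and 196 with siGYS1. Both siGYS1 libraries lay below both NC libraries for each gene. The log2 fold change was -0.49 (SE 0.10, adjusted p = 0.0096) for KRT8 and -0.55 (SE 0.10, adjusted p = 0.0061) for KRT18. Without NC replicate 2, they were at -0.45 (adjusted p = 0.0687) and -0.48 (adjusted p = 0.0538). With sip53, KRT8 was at 207 and 197 TPM and fell by 0.40 on the log2 scale (SE 0.10, adjusted p = 0.0079), and KRT18 was at 225 and 215 TPM with a log2 fold change of -0.24 (adjusted p = 0.080). That value passed in 8 of 15 alternatives, such as without siGYS1 replicate 1 (log2 -0.22, adjusted p = 0.0338) or without replicate 2 of siGYS1 (log2 -0.22, adjusted p = 0.0350). The call on KRT8 with sip53 was lost without NC replicate 2 (log2 -0.37, adjusted p = 0.0501), sip53 replicate 1 (log2 -0.43, adjusted p = 0.0523) or sip53 replicate 2 (log2 -0.37, adjusted p = 0.0792). KRT18 was lower with siGYS1 than with sip53 (log2 -0.31, SE 0.10, adjusted p = 0.032), a call that was lost without siGYS1 replicate 1 (log2 -0.21, adjusted p = 0.113), sip53 replicate 1 (log2 -0.29, adjusted p = 0.181) or sip53 replicate 2 (log2 -0.34, adjusted p = 0.116).

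KRT8 and KRT18 made up 81.5% to 86.6% of all keratin TPM. Their ratio, KRT8 over KRT18, lay between 0.917 and 1.09 in the 6 libraries, so the 2 chains were at similar levels. It was 1.05 and 1.01 with NC, 1.07 and 1.09 with siGYS1 and 0.920 and 0.917 with sip53. The groups did not overlap, and the difference in this ratio was not tested. The genes are direct neighbours on chromosome 12, and 525 exon bases of KRT18 overlap KRT8 on the opposite strand. The sources used here do not say if reads were counted by strand, and reads in that stretch cannot be assigned. GENCODE 29 lists 50 genes named as KRT8 pseudogenes and 67 as KRT18 pseudogenes, none of which has a row in the table, and the values of both genes are uncertain to the extent that reads were shared with them. In bulk RNA, fewer cells expressing a gene and less RNA per cell cannot be told apart.

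The summed keratin level followed this pair. Type I keratins summed to 312 ± 5.48 TPM (mean ± SD, n = 2 libraries) with NC, 218 ± 15.4 with siGYS1 and 250.4 ± 7.82 with sip53. Type II keratins summed to 328 ± 7.74, 255 ± 18.4 and 258 ± 5.38 TPM. Every knockdown library lay below every NC library in both sums.

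**Figure D2:**
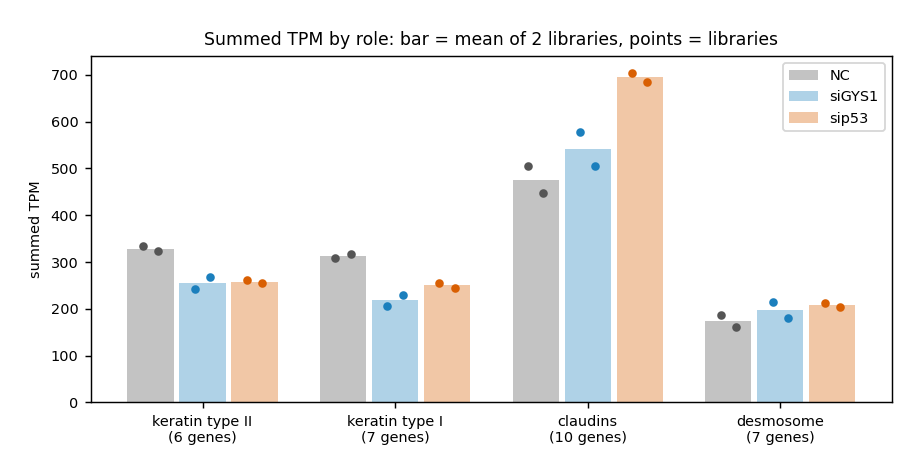
Summed TPM of the reported genes of 4 roles, with bars as the mean of the 2 libraries of a group and points as single libraries. Both keratin classes were lower in both knockdowns than with NC (type I 312, 218 and 250.4 TPM with NC, siGYS1 and sip53), and the claudins were highest with sip53 (694 TPM beside 475 with NC).

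KRT81, KRT83 and KRT27 fell in both knockdowns. KRT81, a type II hair keratin, was at 12.8 and 12.01 TPM with NC, 5.39 and 7.10 with siGYS1 and 5.53 and 5.50 with sip53. Both knockdowns were at roughly the same level, below both NC libraries. The log2 fold change was -0.98 with siGYS1 (SE 0.16, adjusted p = 0.0033) and -1.09 with sip53 (SE 0.16, adjusted p = 0.00044). KRT83, the adjacent gene on chromosome 12, was at 4.53 and 5.78 TPM with NC, 2.35 and 3.14 with siGYS1 and 2.27 and 1.95 with sip53. It fell by 0.92 with siGYS1 (SE 0.23, adjusted p = 0.022) and by 1.23 with sip53 (SE 0.24, adjusted p = 0.0020) on the log2 scale. KRT27, a type I keratin of the inner root sheath, was at 10.3 and 12.7 TPM with NC, 6.87 and 6.99 with siGYS1 and 6.89 and 6.38 with sip53, and fell by 0.74 and 0.73 (SE 0.16 each, adjusted p = 0.013 and 0.0047). Both comparisons share the NC libraries. KRT81, KRT83 and the neighbouring KRT86 are near-identical in parts, and their counts were not whole in 6, 4 and 5 of the 6 libraries, so reads may have been split among them. KRT86 itself was at 1.02 to 1.29 TPM with NC and did not pass (log2 -0.11 with siGYS1, 0.19 with sip53). Without NC replicate 2 the siGYS1 calls on KRT83 and KRT27 were lost (-0.67, adjusted p = 0.177 and -0.52, adjusted p = 0.123), and the one on KRT83 also without siGYS1 replicate 1 (log2 -0.67, adjusted p = 0.0672).

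KRT80, a type II keratin of many epithelia, moved the other way in both knockdowns. It was at 24.8 and 19.6 TPM with NC, 37.7 and 37.1 with siGYS1 and 38.3 and 39.1 with sip53, with no overlap. The rise was 1.68-fold with siGYS1 (log2 0.75, SE 0.10, adjusted p = 0.0012) and 1.84-fold with sip53 (log2 0.88, SE 0.10, adjusted p = 8.2e-05). KRT80 and KRT81 were the only 2 of the 12 genes called with siGYS1 that kept their call in all 15 alternative analyses.

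KRT15 and KRT19, direct neighbours on chromosome 17, were low and differed between the knockdowns. KRT19, the smallest type I keratin and a marker of simple ducts, was at 1.94 and 1.61 TPM with NC, 0.52 and 0.79 with siGYS1 and 1.96 and 2.45 with sip53. It fell with siGYS1 (log2 -1.52, SE 0.36, adjusted p = 0.017), did not pass with sip53 (log2 0.40, adjusted p = 0.26), and was lower with siGYS1 than with sip53 by a log2 of -1.92 (SE 0.34, adjusted p = 0.0015). KRT15, a keratin of basal cells, was at 3.23 and 2.68 TPM with NC, 1.77 and 1.79 with siGYS1 and 4.04 and 4.07 with sip53. Its log2 fold change was -0.76 with siGYS1 (SE 0.20, adjusted p = 0.028) and 0.56 with sip53 (SE 0.18, adjusted p = 0.025), with opposite signs, and -1.32 between the knockdowns (SE 0.19, adjusted p = 0.00049). Each call against NC on KRT15 rested on few reads (33 to 86 in a library). The siGYS1 call was lost in 11 of 15 alternatives, including the omission of any 1 of the 6 libraries (adjusted p = 0.0531 to 0.117). The sip53 call was lost in 8, including without NC replicate 1 (log2 0.64, adjusted p = 0.0602), NC replicate 2 (log2 0.49, adjusted p = 0.137), sip53 replicate 1 (log2 0.50, adjusted p = 0.131) or sip53 replicate 2 (log2 0.62, adjusted p = 0.0661). The siGYS1 call on KRT19 was lost without NC replicate 1 (log2 -1.44, adjusted p = 0.0651), NC replicate 2 (log2 -1.60, adjusted p = 0.0589) or siGYS1 replicate 1 (log2 -1.25, adjusted p = 0.0701).

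The remaining keratins did not pass against NC in the fit reported. KRT7, the other simple-epithelium type II keratin, was at 6.78 and 6.61 TPM with NC, 6.23 and 7.22 with siGYS1 and 7.93 and 8.89 with sip53 (log2 0.41, adjusted p = 0.051 with sip53). It passed with sip53 in 6 of 15 alternatives, such as without siGYS1 replicate 1 (log2 0.43, adjusted p = 0.0199) or without replicate 2 of siGYS1 (log2 0.43, adjusted p = 0.0197). KRT10, a keratin of suprabasal epidermis, lay between 14.3 and 19.5 TPM and was at a log2 of -0.28 with sip53 (adjusted p = 0.073), which passed in 7 of 15 alternatives, such as without siGYS1 replicate 1 (log2 -0.26, adjusted p = 0.0364) or without replicate 2 of siGYS1 (log2 -0.26, adjusted p = 0.0363). KRT25, another inner root sheath keratin, was at 1.62 to 3.39 TPM (log2 0.39 with siGYS1, -0.40 with sip53) and KRT17 at 0.64 to 2.05. KRT25 was higher with siGYS1 than with sip53 (log2 0.79, SE 0.26, adjusted p = 0.032), which was lost without siGYS1 replicate 2 (log2 0.52, adjusted p = 0.178), sip53 replicate 1 (log2 0.75, adjusted p = 0.139) or sip53 replicate 2 (log2 0.83, adjusted p = 0.111).

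**Figure D3:**
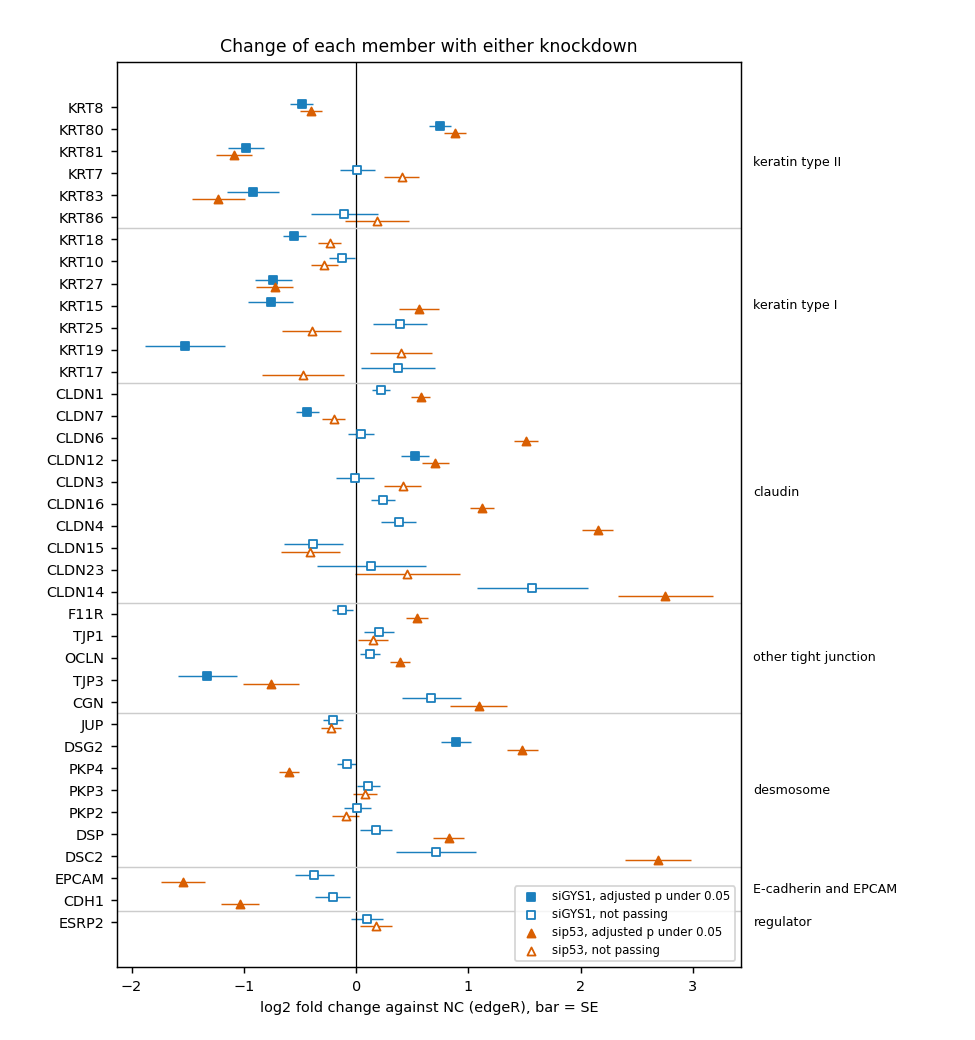
Log2 fold change against NC of the genes described from the edgeR fit, with bars of 1 SE, squares for siGYS1 and triangles for sip53, and filled symbols for an adjusted p under 0.05. With siGYS1 most filled symbols are keratins left of 0, and with sip53 the 6 filled claudins are all right of 0, up to 2.76 for CLDN14.

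With sip53, 23 of the 39 genes passed, 14 up and 9 down, which is 59.0% beside 49.9% of all genes tested; 23.4% of all genes rose and 26.5% fell. The median log2 fold change of the 39 genes was 0.18, and that of all genes was -0.03. When log2(TPM + 1) was tested with limma instead of the counts, 11 rose and 11 fell, and over all genes the share of rises among the calls was 37.5% instead of 47.0%. Of 10 claudins 6 rose and none fell, with a median of 0.64. Of the 6, CLDN14 reached the limit of 0.5 TPM only through the knockdown libraries. CLDN11, a claudin just outside that limit and not among the 10, was tested and fell with sip53 (log2 -1.28, SE 0.44, adjusted p = 0.036). It also fell with siGYS1 (log2 -1.53, SE 0.46, adjusted p = 0.044). Of 13 keratins 2 rose and 4 fell, with a median of -0.28. The claudin TPM summed to 475 ± 40.6 with NC, 541 ± 52.8 with siGYS1 and 694 ± 14.4 with sip53 (mean ± SD, n = 2 libraries). CLDN1 made up 74.5% to 80.3% of it, and without CLDN1 the sums were 106 ± 0.0354, 108 ± 8.08 and 173 ± 9.75 TPM.

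CLDN1, a sealing claudin, was at 398 and 341 TPM with NC, 465 and 402 with siGYS1 and 525 and 519 with sip53. The sip53 libraries were the highest, and every siGYS1 library was above every NC library. The rise was 1.49-fold with sip53 (log2 0.57, SE 0.08, adjusted p = 0.00037). With siGYS1, the log2 fold change was 0.22 (SE 0.08, adjusted p = 0.086), which passed without siGYS1 replicate 2 (log2 0.29, adjusted p = 0.0308). CLDN16, a claudin of the kidney tubule whose gene neighbours CLDN1 on chromosome 3, was at 12.5 and 12.3 TPM with NC, 16.5 and 13.0 with siGYS1 and 24.9 and 26.5 with sip53. It rose 2.18-fold with sip53 (log2 1.12, SE 0.10, adjusted p = 2.5e-05) and was at a log2 of 0.24 with siGYS1 (adjusted p = 0.15), which passed without siGYS1 replicate 2 (log2 0.37, adjusted p = 0.0201). The siGYS1 levels of both genes were below those with sip53 (log2 -0.35, adjusted p = 0.0071 for CLDN1 and -0.89, adjusted p = 0.00012 for CLDN16), and the difference for CLDN1 was lost without sip53 replicate 1 (log2 -0.34, adjusted p = 0.0698) or sip53 replicate 2 (log2 -0.36, adjusted p = 0.0579).

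The claudins that rose most with sip53 were CLDN14, CLDN4 and CLDN6. CLDN4, a widely expressed epithelial claudin and the receptor of a clostridial toxin together with CLDN3, was at 2.78 and 3.15 TPM with NC, 3.99 and 4.19 with siGYS1 and 17.7 and 15.9 with sip53. No sip53 library came near the others. The log2 fold change was 2.15 (SE 0.14, adjusted p = 2.7e-06), which is 4.45-fold in counts, and the ratio of mean TPM was 5.67. With siGYS1 it was 0.38 (SE 0.15, adjusted p = 0.11), and siGYS1 against sip53 gave -1.78 (SE 0.13, adjusted p = 9.0e-06). CLDN6, a claudin of embryonic epithelium, was at 16.7 and 17.7 TPM with NC, 18.9 and 16.5 with siGYS1 and 49.9 and 43.8 with sip53. It rose 2.85-fold with sip53 (log2 1.51, SE 0.11, adjusted p = 5.7e-06), while siGYS1 overlapped NC (log2 0.04, adjusted p = 0.83). CLDN14, a claudin of the inner ear and kidney, was at 0.21 and 0.29 TPM with NC, 0.75 and 0.67 with siGYS1 and 1.84 and 1.90 with sip53, on 3 to 28 reads a library. Its log2 fold change was 2.76 with sip53 (SE 0.42, adjusted p = 0.00051) and 1.57 with siGYS1 (SE 0.49, adjusted p = 0.051), and it was lower with siGYS1 than with sip53 (-1.19, adjusted p = 0.018), lost without siGYS1 replicate 2 (log2 -1.11, adjusted p = 0.0613), sip53 replicate 1 (log2 -1.29, adjusted p = 0.0558) or sip53 replicate 2 (log2 -1.08, adjusted p = 0.105).

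CLDN3 lies beside CLDN4 on chromosome 7 with no protein-coding gene between them. It was at 17.9 and 16.3 TPM with NC, 14.5 and 19.2 with siGYS1 and 23.5 and 19.7 with sip53. The log2 fold change with sip53 was 0.42 (SE 0.16, adjusted p = 0.059), beside 2.15 for CLDN4, and the difference between the 2 genes was not tested. It passed without siGYS1 replicate 1 (log2 0.44, adjusted p = 0.0045) or siGYS1 replicate 2 (log2 0.44, adjusted p = 0.0050). The 250 bases before the start site are printed for CLDN4, its neighbour CLDN3, and CLDN6 and DSG2, which also rose with sip53. They are from RefSeq on GRCh38.p14, and DSG2 encodes a desmosomal cadherin described further on. CLDN14 and DSC2, which rose more with sip53, have 3 and 2 start sites in the same source and are not printed. Capitals mark matches to the AP-1 motif TGANTCA or to the E-box CAGGTG, which reads CACCTG on the other strand, with AP-1 being a stress- and growth-responsive factor and this E-box the one that SNAI and ZEB repressors are known to bind.
CLDN4, chr7:73830746-73830995, plus strand: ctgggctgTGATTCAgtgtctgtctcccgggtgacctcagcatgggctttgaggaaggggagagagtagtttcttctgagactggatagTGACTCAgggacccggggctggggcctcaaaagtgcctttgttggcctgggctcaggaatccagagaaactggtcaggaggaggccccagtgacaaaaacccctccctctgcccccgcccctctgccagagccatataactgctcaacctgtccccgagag
CLDN3, chr7:73770271-73770520, minus strand: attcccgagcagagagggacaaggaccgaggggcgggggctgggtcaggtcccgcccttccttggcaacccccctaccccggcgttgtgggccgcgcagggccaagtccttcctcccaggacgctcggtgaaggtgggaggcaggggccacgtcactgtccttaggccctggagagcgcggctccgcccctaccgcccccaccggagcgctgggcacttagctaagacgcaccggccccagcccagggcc
CLDN6, chr16:3018184-3018433, minus strand: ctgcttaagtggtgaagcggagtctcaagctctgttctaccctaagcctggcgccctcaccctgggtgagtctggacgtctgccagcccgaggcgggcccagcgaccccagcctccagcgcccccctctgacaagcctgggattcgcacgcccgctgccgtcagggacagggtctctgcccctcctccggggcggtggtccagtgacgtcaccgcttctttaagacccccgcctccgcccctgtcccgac
DSG2, chr18:31497927-31498176, plus strand: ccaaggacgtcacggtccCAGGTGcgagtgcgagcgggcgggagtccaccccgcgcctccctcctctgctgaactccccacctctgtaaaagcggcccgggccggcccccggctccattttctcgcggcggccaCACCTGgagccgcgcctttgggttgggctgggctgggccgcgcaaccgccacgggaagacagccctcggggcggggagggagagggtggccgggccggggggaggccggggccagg

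Neither motif overlaps the other. CLDN4 holds 2 AP-1 matches, which begin 242 and 161 bases before the start site, and no E-box. CLDN3 and CLDN6 hold neither. DSG2 holds 2 E-box matches, which begin 232 and 116 bases before its start. Of the 39 genes 22 were matched to the promoter table, with 34 start sites in all. AP-1 matches were in 3 of these 34 windows (CLDN4, CLDN16 and CLDN15) and in 6.57% of all 35116 windows of the same length. E-box matches were in 10 of the 34 and in 17.5% of all windows, and the 10 include a window of CLDN14 and a window of DSC2. The GC box GGGCGG was in 21 of the 34 and in 42.6% of all windows. The TATA box TATAAA was in 3 of the 34 and in 10.7% of all windows. A match describes letters in the window only.

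CLDN12 and CLDN7 were the 2 of these 10 claudins called with siGYS1. CLDN12, a claudin without the usual scaffold-binding end, was at 19.4 and 17.7 TPM with NC, 31.2 and 22.9 with siGYS1 and 30.5 and 27.4 with sip53. It rose in both knockdowns (log2 0.52, SE 0.12, adjusted p = 0.017 with siGYS1 and 0.71, SE 0.12, adjusted p = 0.0011 with sip53). The siGYS1 call on CLDN12 was lost with limma on log2(TPM + 1) (0.51, adjusted p = 0.0689). CLDN7, a claudin that binds EPCAM, was at 32.2 and 35.2 TPM with NC, 25.2 and 22.8 with siGYS1 and 27.5 and 27.2 with sip53. It fell by 0.44 on the log2 scale with siGYS1 (SE 0.10, adjusted p = 0.018) and was at -0.20 with sip53 (adjusted p = 0.13). Without NC replicate 2 neither siGYS1 call held (CLDN12 0.51, adjusted p = 0.0931 and CLDN7 -0.36, adjusted p = 0.154), and that on CLDN12 was also lost without NC replicate 1 (log2 0.54, adjusted p = 0.0550). CLDN15 was at 1.98 to 3.85 TPM and CLDN23 at 0.39 to 1.42 TPM, and neither passed in any comparison, although CLDN23 with sip53 passed without NC replicate 2 (log2 1.73, adjusted p = 0.0107).

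**Figure D4:**
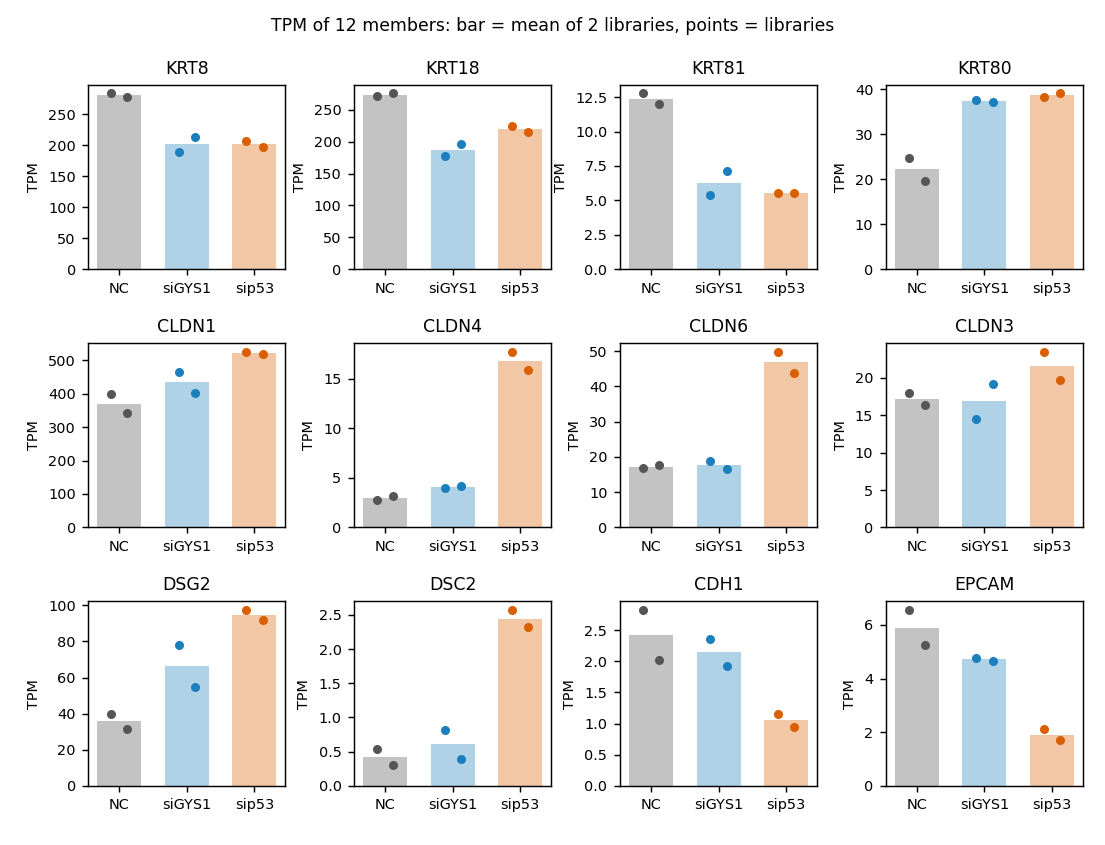
TPM of 12 genes by group, with bars as the mean of the 2 libraries and points as the libraries, on axes that start at 0 and differ in range. CLDN4 and CLDN6 are high in both sip53 libraries alone (17.7 and 15.9 TPM, and 49.9 and 43.8 TPM), whereas KRT8 and KRT81 are lower in both knockdowns.

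The other tight junction genes moved with sip53 in both directions, with 3 of 6 up and 2 down. F11R, the junctional adhesion molecule JAM-A, was at 27.6 and 26.4 TPM with NC, 24.1 and 25.6 with siGYS1 and 38.5 and 36.6 with sip53. It rose 1.46-fold with sip53 (log2 0.54, SE 0.10, adjusted p = 0.0012). OCLN, occludin, was at 9.43 and 8.26 TPM with NC, 12.1 and 9.15 with siGYS1 and 11.7 and 11.1 with sip53, and rose with sip53 by a log2 of 0.39 (SE 0.09, adjusted p = 0.0046). The call on OCLN was lost with limma on TPM (log2(TPM + 1) change 0.33, adjusted p = 0.123). CGN, the scaffold cingulin, was at 0.35 and 0.37 TPM with NC, 0.91 and 0.49 with siGYS1 and 0.67 and 0.79 with sip53 (log2 1.09 with sip53, SE 0.25, adjusted p = 0.0055). It also lost the call with limma (0.35, adjusted p = 0.137).

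ZO-3 and ZO-1 belong to the zonula occludens proteins, which tie the claudins to actin. TJP3 (ZO-3) was at 1.72 and 1.28 TPM with NC, 0.60 and 0.90 with siGYS1 and 1.07 and 0.86 with sip53. Its log2 fold change was -1.33 with siGYS1 (SE 0.27, adjusted p = 0.0083) and -0.76 with sip53 (SE 0.25, adjusted p = 0.028). Both calls were lost with limma on log2(TPM + 1) (-0.51, adjusted p = 0.0945 and -0.34, adjusted p = 0.144). The sip53 call was also lost with DESeq2's Wald test (log2 -0.74, adjusted p = 0.182). TJP1 (ZO-1) lay at 26.7 and 21.1 TPM with NC, 31.2 and 23.3 with siGYS1 and 25.4 in both sip53 libraries, and did not pass (log2 0.20 and 0.15); with siGYS1 it passed without siGYS1 replicate 2 (log2 0.39, adjusted p = 0.0136). For TJP3 the siGYS1 call was lost without NC replicate 1 (log2 -1.11, adjusted p = 0.0530), and the sip53 call without NC replicate 1 (log2 -0.54, adjusted p = 0.201), sip53 replicate 1 (log2 -0.93, adjusted p = 0.0601) or sip53 replicate 2 (log2 -0.60, adjusted p = 0.168). In GENCODE 29, 36.6% of the exon bases of F11R are shared on the same strand with another annotated gene that also has a row, and its count was not whole in any library, so its values are uncertain.

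Both desmosomal cadherins among the 39 genes rose with sip53. DSG2, the desmoglein of simple epithelium, was at 40.0 and 31.5 TPM with NC, 78.3 and 55.0 with siGYS1 and 97.4 and 91.8 with sip53. The 3 groups did not overlap. DSG2 rose 1.85-fold with siGYS1 (log2 0.89, SE 0.14, adjusted p = 0.0024) and 2.79-fold with sip53 (log2 1.48, SE 0.14, adjusted p = 2.5e-05). DSC2, its desmocollin partner, was at 0.54 and 0.31 TPM with NC, 0.82 and 0.39 with siGYS1 and 2.57 and 2.32 with sip53. It rose 6.46-fold with sip53 (log2 2.69, SE 0.29, adjusted p = 6.9e-05). With siGYS1 its libraries overlapped NC (log2 0.71, SE 0.35, adjusted p = 0.18), and it passed without siGYS1 replicate 2 (log2 1.11, adjusted p = 0.0108). Both genes lie on chromosome 18, with 4 protein-coding genes between them. DSG2 was lower with siGYS1 than with sip53 by a log2 of -0.59 (adjusted p = 0.0058), lost without sip53 replicate 1 (log2 -0.55, adjusted p = 0.0598), and DSC2 by -1.98 (SE 0.27, adjusted p = 0.00035).

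The desmosomal plaque genes were mixed. DSP, desmoplakin, which binds keratin filaments, was at 3.20 and 2.40 TPM with NC, 3.66 and 2.75 with siGYS1 and 4.76 and 4.79 with sip53, and rose 1.77-fold with sip53 (log2 0.82, SE 0.14, adjusted p = 0.00079). PKP4, a plakophilin-related protein also found at adherens junctions, was at 45.1 and 39.9 TPM with NC, 44.2 and 38.2 with siGYS1 and 27.9 and 27.2 with sip53. It fell with sip53 by 0.60 on the log2 scale (SE 0.09, adjusted p = 0.00039) and overlapped NC with siGYS1 (log2 -0.08, adjusted p = 0.52). JUP, plakoglobin, was at 77.4 and 68.9 TPM with NC, 65.5 and 64.1 with siGYS1 and 60.1 and 60.2 with sip53. Both knockdowns were below NC, but neither passed (log2 -0.20, adjusted p = 0.13 and -0.23, adjusted p = 0.059); with sip53 it passed without siGYS1 replicate 1 (log2 -0.20, adjusted p = 0.0379) or siGYS1 replicate 2 (log2 -0.20, adjusted p = 0.0391). PKP2 and PKP3, the other plakophilins reported, lay at 6.65 to 8.60 and 11.8 to 13.5 TPM and did not pass. With siGYS1, DSP was at a log2 of 0.18 (adjusted p = 0.40), which passed without siGYS1 replicate 2 (log2 0.35, adjusted p = 0.0479).

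E-cadherin and EPCAM fell with sip53, against the direction of the claudins and desmosomal cadherins. CDH1 was at 2.82 and 2.02 TPM with NC, 2.36 and 1.92 with siGYS1 and 1.16 and 0.95 with sip53. EPCAM, an epithelial adhesion molecule, was at 6.55 and 5.25 TPM with NC, 4.75 and 4.67 with siGYS1 and 2.12 and 1.70 with sip53. In both genes the sip53 libraries were the lowest 2 of 6. The log2 fold change with sip53 was -1.03 for CDH1 (SE 0.17, adjusted p = 0.00073) and -1.54 for EPCAM (SE 0.20, adjusted p = 0.00018). With siGYS1 neither passed (log2 -0.21, adjusted p = 0.38 and -0.37, adjusted p = 0.16), and both were higher with siGYS1 than with sip53 (log2 0.83, SE 0.17, adjusted p = 0.0036 and 1.17, SE 0.21, adjusted p = 0.0014). These sip53 calls on CDH1 and EPCAM held in all 15 alternatives. ESRP2, a splicing regulator of epithelial isoforms, did not pass in any comparison (log2 0.10 with siGYS1 and 0.18 with sip53).

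Set directly against each other, the knockdowns differed in 18 of the 39 genes, 5 higher and 13 lower with siGYS1, which is 46.2% beside 43.4% of all genes; 22.5% of all genes were higher and 20.9% lower. None of the 6 type II keratins passed this test, while 3 type I keratins (KRT15, KRT18, KRT19) were lower with siGYS1 and KRT25 was higher. Of 10 claudins 5 were lower with siGYS1 (CLDN1, CLDN4, CLDN6, CLDN14, CLDN16) and none was higher. F11R (log2 -0.66, adjusted p = 0.00044) and DSP (-0.65, adjusted p = 0.0036) were lower, and PKP4 (0.51, adjusted p = 0.0012) was higher. The call on DSP was lost with limma on log2(TPM + 1) (-0.47, adjusted p = 0.0721). OCLN was also lower (log2 -0.27, adjusted p = 0.033) and lost its call in 10 alternatives, 5 of which leave out NC replicate 1 (log2 -0.27, adjusted p = 0.0543), NC replicate 2 (log2 -0.27, adjusted p = 0.0538), siGYS1 replicate 2 (log2 -0.24, adjusted p = 0.0720), sip53 replicate 1 (log2 -0.28, adjusted p = 0.135) or sip53 replicate 2 (log2 -0.26, adjusted p = 0.161). Against NC, which both knockdowns share as control, 5 genes fell in both (KRT8, KRT27, KRT81, KRT83, TJP3), 3 rose in both (CLDN12, DSG2, KRT80), 1 had opposite calls (KRT15) and 13 passed in neither. Of all genes tested 5.11% fell in both, 6.75% rose in both, 2.07% had opposite calls and 44.4% passed in neither.

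The partners of these genes, taken from 8 lists outside the 39 genes, are given for comparison. Their counts stand beside 23.4% of all genes up and 26.5% down with sip53, and 10.4% up and 9.24% down with siGYS1. Of 8 gap junction genes 5 rose and none fell with sip53 (median log2 0.82), and 1 rose and 1 fell with siGYS1. GJA1, connexin 43, was at 9.57 and 7.82 TPM with NC, 11.3 and 8.52 with siGYS1 and 39.6 and 38.4 with sip53 (log2 2.24 with sip53, SE 0.12, adjusted p = 9.5e-07). GJB5 fell with siGYS1 (log2 -0.98, adjusted p = 0.046). Of 9 hemidesmosome genes, which anchor cells to the basement membrane, 7 rose and 2 fell with sip53, and 4 rose and 2 fell with siGYS1. The laminin-332 chains LAMB3 and LAMA3 rose with sip53 (log2 1.82 and 0.83) and with siGYS1 (0.37 and 0.68). ITGB4, the integrin chain of the same structure, was at 3.53 and 2.93 TPM with NC, 2.12 and 1.93 with siGYS1 and 0.48 and 0.37 with sip53, and fell by 0.69 and 2.75 on the log2 scale (adjusted p = 0.0088 and 2.5e-06). The list thus held members that moved in opposite directions.

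Of 12 genes of cadherin, catenin and nectin adhesion 4 rose and 3 fell with sip53, and 2 rose with siGYS1. CTNND1, the p120 catenin that binds E-cadherin, fell with sip53 from 59.4 and 49.5 to 28.2 and 29.7 TPM (log2 -0.85, SE 0.11, adjusted p = 0.00015). CDH6 rose by log2 2.22, on 0.42 and 0.33 TPM with NC, and VCL (vinculin) by 0.52. CDH6 averaged 0.375 TPM with NC and 0.35 with siGYS1, and reached the limit of 0.5 TPM only through the sip53 libraries (1.555). NECTIN3 rose in both knockdowns (0.45 and 0.64). Of 22 tight junction scaffold and polarity genes 5 rose and 8 fell with sip53, and 2 rose with siGYS1. CGNL1, the paralogue of cingulin, rose by log2 1.74 with sip53 (SE 0.11, adjusted p = 2.8e-06), and CXADR rose in both knockdowns (0.46 and 0.85), while the polarity genes PARD6G and PATJ fell with sip53 (-0.97 and -0.77). Of 7 further desmosome and cytolinker genes 2 rose and 2 fell with sip53, and 1 each with siGYS1. PPL, periplakin, fell in both (-1.41 and -1.32), DST rose in both (0.67 and 0.81), and PLEC (plectin) rose with sip53 (0.80). The rise of DST with siGYS1 was 1.59-fold in counts, whereas the ratio of mean TPM was 1.14. DST was at 39.77 and 32.15 TPM with NC and 39.91 and 42.38 with siGYS1. CTNND1 counts under both the catenin and the desmosome list, and DST and PLEC under both the desmosome and the hemidesmosome list.

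**Figure D5:**
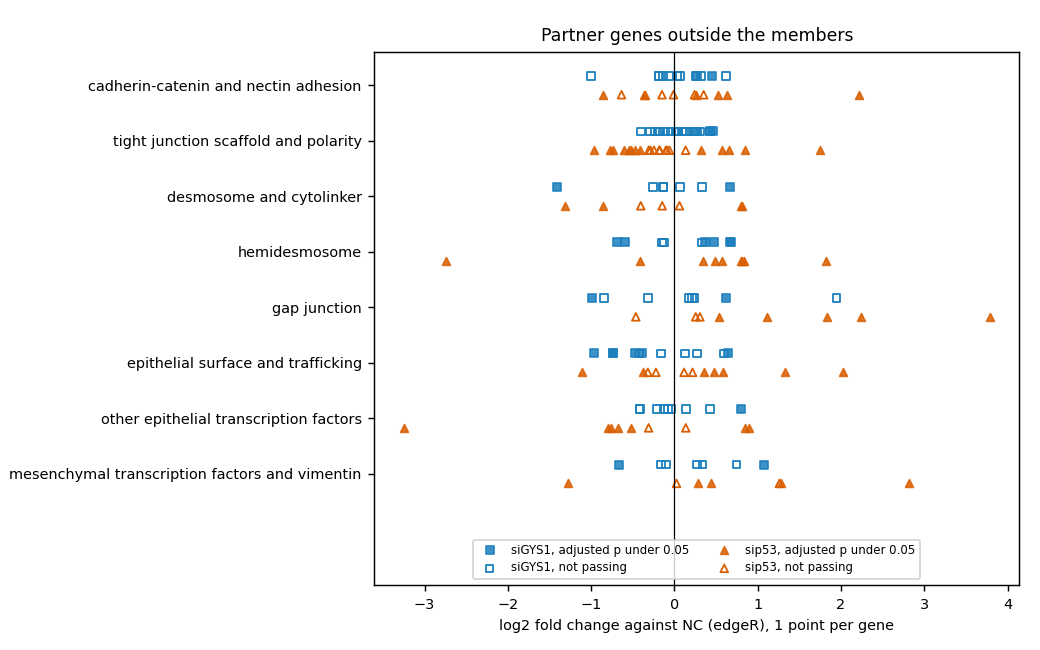
Log2 fold change against NC of the tested genes of 8 partner lists, 1 point per gene, with squares for siGYS1, triangles for sip53 and filled symbols for an adjusted p under 0.05. The 5 filled gap junction triangles lie right of 0, and in every other list filled triangles lie on both sides.

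Of 11 epithelial surface and trafficking genes 1 rose and 5 fell with siGYS1, and 5 rose and 2 fell with sip53. MAL2, a transcytosis protein, was at 23.8 and 20.8 TPM with NC, 17.6 and 16.7 with siGYS1 and 55.0 and 51.2 with sip53. Its calls had opposite signs (log2 -0.39, adjusted p = 0.017 and 1.32, adjusted p = 3.7e-06). MUC1, a surface mucin, also had opposite calls (log2 -0.96 and 0.48, adjusted p = 0.012 and 0.049). SPINT1, a protease inhibitor, fell in both (-0.74 and -1.11), and CDH17 rose with sip53 (2.02). CDH17 averaged 0.44 TPM with NC, so it reached the limit of 0.5 TPM through the knockdown libraries. Of 9 other epithelial transcription factors 2 rose and 5 fell with sip53. GRHL3 fell from 1.26 and 0.73 to 0.09 and 0.10 TPM (log2 -3.25, SE 0.52, adjusted p = 0.00065) and ELF3 from 30.8 and 29.3 to 16.3 and 14.9 TPM (log2 -0.80), and KLF4 rose in both knockdowns (0.80 and 0.85).

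The mesenchymal list held transcription factors, vimentin, FN1 and S100A4. Of its 7 tested genes 4 rose and 1 fell with sip53, and 1 rose and 1 fell with siGYS1. ZEB2, a repressor of E-cadherin, was at 0.45 and 0.34 TPM with NC, 0.57 and 0.48 with siGYS1 and 1.62 and 2.34 with sip53, and rose by log2 1.07 with siGYS1 (SE 0.31, adjusted p = 0.039) and 2.81 with sip53 (SE 0.26, adjusted p = 2.5e-05). In counts these are 2.10-fold and 7.02-fold, whereas the ratios of mean TPM were 1.33 and 5.01. ZEB2 averaged 0.395 TPM with NC, so it reached the limit of 0.5 TPM through the knockdown libraries. FN1, fibronectin, rose with sip53 (log2 1.28), and ZEB1 rose by 0.44 (adjusted p = 0.029). TWIST1 moved the other way and fell in both (-0.67 and -1.27). The medians over the tested members of these 8 lists ranged from -0.39 to 0.33 with siGYS1 and from -0.52 to 0.82 with sip53, beside -0.01 and -0.03 over all genes tested.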

How the data were processed

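Poly(A)-selected RNA-seq of 6 TOV21G libraries was analysed from 1 table of 16910 gene rows with human Ensembl identifiers, 16830 of them in GENCODE 29. Per the file headers, the authors give a read count, its normalized form, FPKM and TPM for each library. The deposited read counts are expected counts, as 16.8% to 18.1% of the values per library are not whole, and the deposited normalized count is a signal, the count times 1 constant per library. FPKM served only to derive the transcript length (count over FPKM). The aligner, counter and annotation behind the table, and the use of strand in counting, are not stated in the labels or headers. The submitters' processing notes name a mouse build, although the identifiers are human. The authors' group means were not used.

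Rounded counts entered edgeR 4.0.16 under R 4.3.3, after filterByExpr (minimum count 10), with TMM and the quasi-likelihood test, all 6 libraries in 1 fit with group as the term (3 residual degrees of freedom). Of the genes 13235 were tested and 3675 removed. A gene is called at a Benjamini-Hochberg adjusted p below 0.05 over all genes tested, and SE is the absolute log2 fold change over the square root of F. DESeq2 1.42.0, limma 3.58.1 on log2(TPM + 1), a length correction, a replicate block and leaving out each library were alternatives.

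The genes, lists and tests were chosen with earlier results of these data known. Values in every library are given for KRT18, CLDN4 and EPCAM, for the 8 members with the highest mean TPM and for called members, up to the 24 with the largest change against NC. Some further members are given in the same way. Of each partner list the 4 called genes with the largest change against NC are named, among those at a mean of at least 0.5 TPM. Some genes that these rules take are not reported here, although the counts include them. Vimentin, PAX8, COL3A1, LUM, KRT5, TP63 and DCN are shown as markers. Motifs were searched in the 250 bases before the start sites of the RefSeq promoter table, on both strands.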

Additional observations from a re-analysis of the deposited data

How the results depend on the processing

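The count of members called with siGYS1 against NC was 12 in the analysis reported and 8 to 17 in 14 of 16 alternatives, but fell to 5 (2 up, 3 down) with limma on log2(TPM + 1) and no filter on low values. Leaving out 1 library at a time gave 4 to 16, the lowest without NC replicate 2. With sip53 against NC the range was 19 to 28 around 23, and with siGYS1 against sip53 12 to 22 around 18. No called member changed sign in any alternative. Over all genes tested, siGYS1 against NC gave 2602 calls, 927 without NC replicate 2, 1572 without sip53 replicate 2, 1577 without sip53 replicate 1, 1718 without NC replicate 1, 4267 without siGYS1 replicate 2, 1512 with both groups alone, 1233 with limma on log2(TPM + 1), 1196 with limma on log2(TPM + 0.1), 590 with limma without a filter, 4110 with length-corrected offsets and 4662 with the replicate block. For siGYS1 against sip53, 5745 genes were called, 3652 with limma without a filter and 3445 without sip53 replicate 1, 3493 without sip53 replicate 2; for sip53 against NC, 6605, 4284 without sip53 replicate 1. The share of higher among all called genes with siGYS1 moved from 53.0% to 63.6% with DESeq2's Wald test and to 40.0% with limma without a filter. The replicate numbers pair only 2 libraries per group: same-numbered libraries deviated together with correlations of 0.59 (NC and siGYS1), 0.12 (NC and sip53) and 0.27 (siGYS1 and sip53). With the replicate block, 16, 28 and 21 members were called. The cause of these differences was not tested. Of the members called in any comparison, low read counts limit CLDN14, KRT19, TJP3, CGN, KRT25, KRT15 and EPCAM the most. They had 83 to 429 reads over the 6 libraries. KRT17, CLDN23, KRT86 and CLDN15, not called in the fit reported, had 151 to 331.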
